A study of Mus musculus with 17 samples.

Results

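Mertk, Tyro3, Megf10, Mfge8, Itgav, Itgb5, Gulp1 and Lrp1 encode the surface receptors, bridging proteins and adaptor by which astrocytes recognise and engulf dying cells, myelin debris and synapses. These 8 genes were chosen by name, with earlier results of these data known. Shares of all genes set beside them, or beside the other gene lists, are therefore descriptions and not tests. The 8 genes come from 55471 gene identifiers in the 5-week libraries and 55414 in the 5.5- and 7-week libraries. All 8 were measured at every week. They were measured in RNA bound to ribosomes from the corpus callosum, the large myelinated tract between the hemispheres, of male GFAP-Cre+/- Rpl22HA/wt mice aged 8 to 9 weeks at the start. In these mice Cre, driven by the GFAP promoter, switches on an HA-tagged ribosomal protein Rpl22, and an antibody to HA pulls down the tagged ribosomes with their mRNA (RiboTag). All groups, mock included, carried both alleles. Cuprizone mice ate chow with 0.2% (w/w) cuprizone, a copper chelator that kills oligodendrocytes, for 5 weeks. They were taken at 5 weeks (acute demyelination), at 5.5 weeks after 0.5 weeks back on regular chow (early remyelination), or at 7 weeks after 2 weeks back on chow (late remyelination). Mock mice of the same age stayed on normal chow. Each week has its own mock group.

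The 17 deposited libraries form 6 groups of 3, with 2 in the 5-week mock group, but 8 of them repeat another library of their group. In those 8, between 46.6% and 96.2% of genes with 500 or more counts lie 1 to 10 counts above the other library, against at most 1.71% between any pair used here. For the 8 genes, 56 of the 64 values in these libraries lie 1 to 10 counts above the library repeated. The 8 outside are unevenly spread. In the 5-week mock 1, the library with the 46.6% share, Mertk, Mfge8, Tyro3 and Gulp1 differ by 212, 226, 35 and 29 counts. In the 5-week cuprizone 2, Gulp1 and Lrp1 differ by 105 and 89. In the 5.5-week mock 2, Mfge8 and Itgb5 differ by -726 and -28. The libraries taken as repeats were not counted as samples, and 9 libraries remained. At 5.5 weeks these are 3 cuprizone and 2 mock libraries, which allow a test. At 5 and at 7 weeks there is 1 cuprizone and 1 mock library, so differences there have no replicate check. The 5-week libraries are batch 1 in the labels and the later ones batch 2, so week and batch cannot be told apart when 5 weeks is set against the later weeks. The 9 libraries hold between 20797535 and 30400048 counts. The 7-week cuprizone library stands apart. It has counts in 34576 genes, against 19496 to 23980 in the other 8, and its mitochondrial share is 0.526%, against 0.0147% to 0.0594%. The low end of that range is the 5-week cuprizone library, which is also apart. Its mock library has 0.0503%, and the remaining libraries have 0.0382% to 0.0594%.

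Cells that undergo apoptosis, and damaged membranes, expose phosphatidylserine on their outer face. Tyro3 and Mertk, with Axl, form the TAM family of receptor tyrosine kinases, which bind it through the bridging ligands Gas6 and protein S. Mfge8 (lactadherin) is a secreted bridge that binds phosphatidylserine and, through an RGD motif, the integrins αvβ3 and αvβ5, of which Itgav and Itgb5 encode the αv and β5 chains. Megf10, the relative of Draper in flies and CED-1 in worms, and Lrp1, a large endocytic receptor of the LDL receptor family for α2-macroglobulin, apolipoprotein E and calreticulin, pass the signal inward. Gulp1, the relative of CED-6 in worms, is a cytosolic adaptor that binds NPxY motifs of such receptors. In mouse brain, astrocytes use Megf10 and Mertk to take up synapses.

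The astrocyte identity that the labels give was checked against markers. All 12 astrocyte markers had counts in every library used, with summed levels of 9649 to 19590 CPM (a gene's count relative to its library's total, after TMM scaling, which sets aside the most divergent genes). Markers of oligodendrocytes summed to 10550 to 23320 CPM and markers of neurons to 6737 to 13590 CPM, so transcripts of these cells were about as abundant as those of astrocytes. No library of input RNA was used here. In such bulk samples fewer cells of a type and less RNA per cell cannot be told apart.

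The region just upstream of the transcription start is printed for the 4 genes on which the results turn, namely Mfge8, the gene called at 5.5 weeks, Lrp1 and Itgb5, which lay far below mock at 5 weeks and above it at 7 weeks, and Gulp1, the exception at 5 weeks. Each run is the 250 bases before the start in RefSeq (build GRCm38.p6), 5′ to 3′ on the gene's strand, at chr7:79149061-79149310 (minus strand) for Mfge8, chr10:127621149-127621398 (minus strand) for Lrp1, chr16:33829415-33829664 (plus strand) for Itgb5 and chr1:44551421-44551670 (plus strand) for Gulp1. Capitals mark the GC box GGGCGG or its reverse complement CCGCCC.
Mfge8: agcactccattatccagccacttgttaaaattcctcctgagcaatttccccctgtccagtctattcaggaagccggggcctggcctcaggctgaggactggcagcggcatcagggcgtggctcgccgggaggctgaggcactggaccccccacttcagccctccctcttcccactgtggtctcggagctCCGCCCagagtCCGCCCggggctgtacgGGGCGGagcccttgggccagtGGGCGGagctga
Lrp1: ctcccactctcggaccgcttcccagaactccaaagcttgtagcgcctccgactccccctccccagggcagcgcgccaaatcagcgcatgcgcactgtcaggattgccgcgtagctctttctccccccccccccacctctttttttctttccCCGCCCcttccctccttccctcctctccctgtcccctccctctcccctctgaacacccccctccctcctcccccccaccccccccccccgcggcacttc
Itgb5: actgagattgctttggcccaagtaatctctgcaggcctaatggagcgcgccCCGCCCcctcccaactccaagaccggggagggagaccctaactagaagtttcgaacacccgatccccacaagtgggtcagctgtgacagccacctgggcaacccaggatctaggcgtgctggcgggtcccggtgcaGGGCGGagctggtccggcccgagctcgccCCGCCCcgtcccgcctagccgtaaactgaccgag
Gulp1: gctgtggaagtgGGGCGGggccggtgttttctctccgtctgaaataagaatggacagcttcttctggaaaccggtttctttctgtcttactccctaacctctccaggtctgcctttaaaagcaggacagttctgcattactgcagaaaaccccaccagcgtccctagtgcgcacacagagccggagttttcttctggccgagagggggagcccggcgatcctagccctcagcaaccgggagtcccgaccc
The Mfge8 run holds 4 GC boxes, Itgb5 holds 3, and Lrp1 and Gulp1 hold 1 each. The motif is found in 32.7% of the 32851 promoters in the same table at this length. The table has promoters of 7 of the 8 genes, and in the others Mertk and Tyro3 have 3 GC boxes each and Itgav has 0. Searches on both strands for the E-box CACGTG (6.02% of all promoters), the AP-1 site TGANTCA (6.75%) and the sterol regulatory element TCACNCCAC (1.05%) found 0 matches in these 7 promoters. GC content was 65.2% for Mfge8 and Itgb5, 67.2% for Lrp1 and 56.8% for Gulp1, against a median of 52.4%. These are descriptions of sequence, and binding was not measured.

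At 5.5 weeks, the only week with replicates, Mfge8 was the 1 gene of the 8 that was called. Mfge8 fell by 0.69 on the log2 scale in cuprizone mice, a 1.61-fold lower level. Its call depended on which libraries were used, as given below. The other 7 did not pass the test. The log2 fold changes of 5 of them lay between -0.20 and 0.07, with Itgb5 at -0.31 and Mertk at -0.47. Across all 16086 genes tested with edgeR's quasi-likelihood test, 0.392% were called lower and 1.08% higher (1.47% in either direction), and 1 of 8 members was called lower and 0 higher. The median log2 fold change was -0.13 over the 8 genes and 0.00 over all genes tested.

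**Figure D1:**
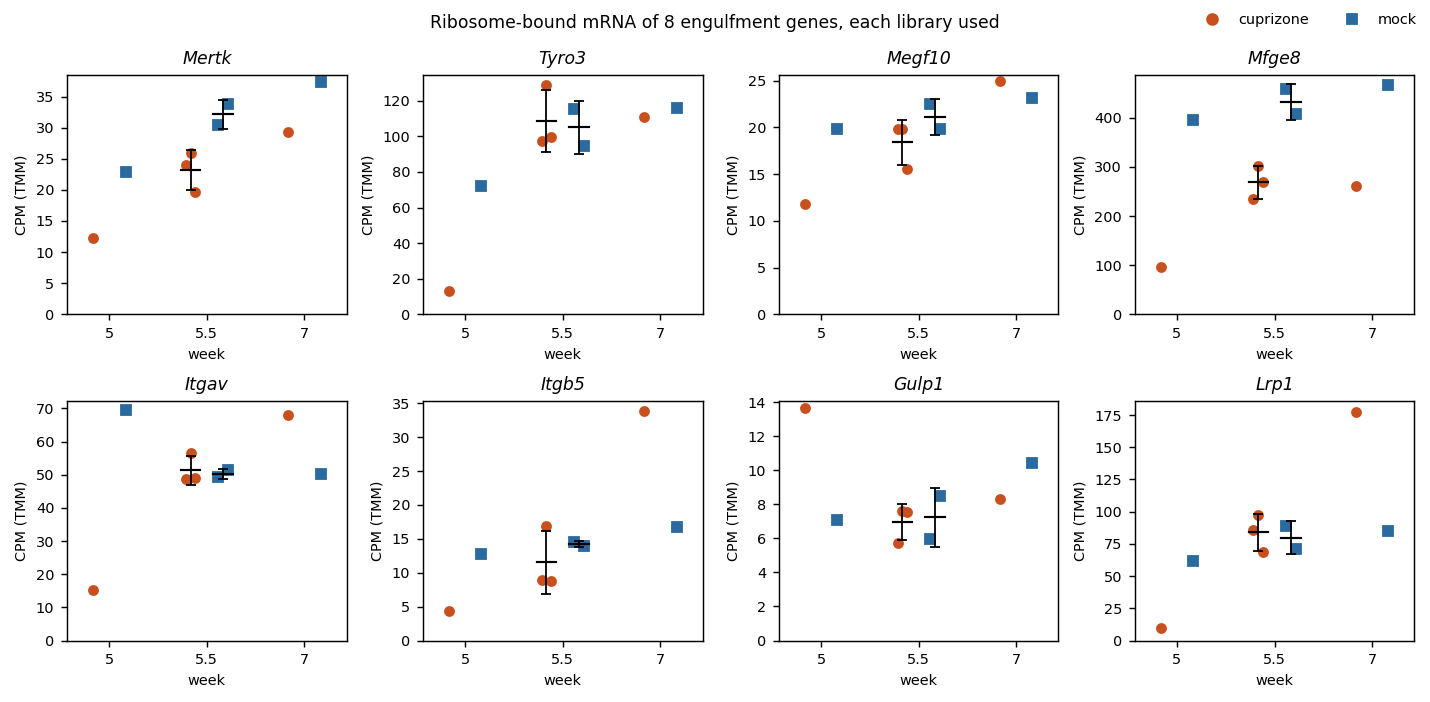
Level of each gene (CPM, linear axis from 0, scaled within each week) in the 9 libraries used, by week; circles are cuprizone libraries, squares mock libraries, and bars at 5.5 weeks mean ± SD (n = 3 cuprizone, 2 mock). Mfge8 is lower in cuprizone at each week, while Lrp1 and Itgb5 are below mock at 5 weeks and above it at 7 weeks.

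Among the bridging proteins and their receptors, Mfge8 had 234, 301 and 269 CPM in the cuprizone libraries 1, 2 and 3, and 459 and 407 CPM in the mock libraries 1 and 3. Every cuprizone library lay below both mock libraries, which holds for 14.8% of all genes tested. The means were 268 ± 33.5 CPM in cuprizone (SD, n = 3) and 433 ± 36.5 CPM in mock (SD, n = 2), with a log2 fold change of -0.69 ± 0.12 (SE) and an edgeR adjusted p of 0.0185. The direction held without each library in turn, at -0.60 to -0.78, but the call did not. The edgeR adjusted p was 0.00986 without cuprizone 2, 0.0521 without cuprizone 3, 0.0622 without mock 3, 0.0788 without cuprizone 1 and 0.115 without mock 1.

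The integrin chains that receive Mfge8 did not pass the test. Itgav had 48.7, 56.4 and 49.0 CPM in cuprizone and 49.3 and 51.3 CPM in mock, with overlapping groups and a log2 fold change of 0.03 ± 0.12 (edgeR adjusted p = 0.956). Its exons share 634 bases with Gm13684, a transcript on the opposite strand that had a count of 0 in the 5.5-week mock 1 library. Itgb5 had 8.95, 16.9 and 8.79 CPM in cuprizone and 14.6 and 14.0 CPM in mock. Cuprizone 2 was the highest of the 5 libraries and the other two cuprizone libraries the lowest. Its log2 fold change was -0.31 ± 0.25 (edgeR adjusted p = 0.714), and without cuprizone 2 it was -0.68 with an adjusted p of 0.0406.

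Of the TAM receptors, Mertk had 23.95, 25.9 and 19.7 CPM in cuprizone and 30.4 and 33.8 CPM in mock. The groups did not overlap, as for 28.0% of all genes tested. The log2 fold change was -0.47 ± 0.14, with an unadjusted p of 0.00624 in edgeR and an adjusted p of 0.176, so the difference was not called. Tyro3 did not separate the groups. It had 97.3, 129 and 99.7 CPM in cuprizone and 115.6 and 94.7 CPM in mock, a log2 fold change of 0.05 ± 0.14 (edgeR adjusted p = 0.941).

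The receptors Megf10 and Lrp1 and the adaptor Gulp1 had overlapping groups. Megf10 had 19.8, 19.8 and 15.6 CPM in cuprizone and 22.5 and 19.8 CPM in mock, a log2 fold change of -0.20 ± 0.15 (edgeR adjusted p = 0.681). Lrp1 had 86.1, 97.2 and 68.3 CPM in cuprizone and 88.8 and 70.8 CPM in mock, a log2 fold change of 0.07 ± 0.15 (edgeR adjusted p = 0.909). Gulp1 had 5.74, 7.58 and 7.56 CPM in cuprizone and 5.99 and 8.46 CPM in mock, a log2 fold change of -0.06 ± 0.20 (edgeR adjusted p = 0.952). The sign of the Tyro3, Itgav, Gulp1 and Lrp1 values turned when 1 library was left out, so these 4 genes have no settled direction at 5.5 weeks.

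**Figure D2:**
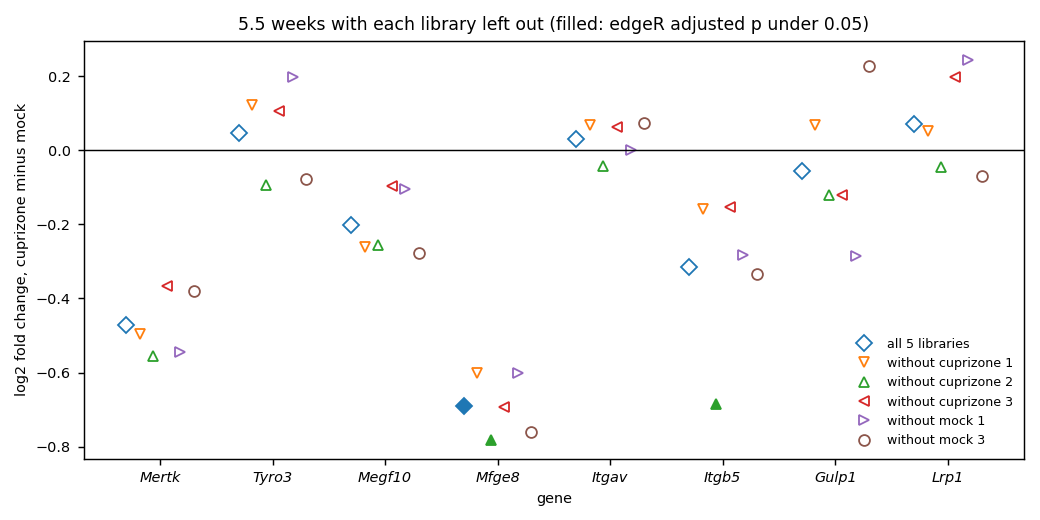
Log2 fold change (cuprizone minus mock, vertical axis) of each gene at 5.5 weeks with all 5 libraries and with each library left out; filled symbols have an edgeR adjusted p under 0.05. Mfge8 stays between -0.60 and -0.78, and the values of Tyro3, Itgav, Gulp1 and Lrp1 lie on both sides of 0.

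At 5 weeks, at the end of cuprizone feeding, 7 of the 8 genes were lower in the cuprizone library than in the mock library, as were 50.3% of all genes compared, and Gulp1 was higher. Tyro3, Mfge8, Itgav, Itgb5 and Lrp1 were at least 2-fold lower, which is 5 of 8, against 12.2% of the 11570 genes compared. None of the 8 was at least 2-fold higher, against 8.89% of all genes. As the 8 genes were chosen with earlier results known, these shares do not test the set. The median log2 ratio was -1.79 over the 8 genes and 0.00 over all genes compared. With 1 library per group these libraries alone allow no test, an alternative that borrows spread is given further on, and the 95% intervals below are exact (Clopper-Pearson) and cover counting error only.

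Lrp1, the endocytic receptor, and Tyro3 lay furthest below mock. Lrp1 had 204 counts (9.48 CPM) in the cuprizone library and 1260 counts (61.4 CPM) in the mock library, 6.48-fold lower (95% interval 5.58 to 7.55). Tyro3 had 13.2 CPM in cuprizone and 72.0 CPM in mock, 5.47-fold lower (4.82 to 6.24). The intervals of Lrp1 and Tyro3 overlap, and with the deposited cuprizone 2, where Lrp1 has 293 counts, the log2 ratios were -2.37 for Lrp1 and -2.60 for Tyro3. Mertk, its TAM relative, was less far apart, with 12.3 CPM in cuprizone and 22.8 CPM in mock, 1.86-fold lower (1.595 to 2.17). The deposited 5-week mock library that was left out has 680 Mertk counts where the library it repeats has 468, and with it the log2 ratio was -1.13 in place of -0.89.

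The secreted bridge Mfge8 had 2070 counts (96.2 CPM) in cuprizone and 8098 counts (395 CPM) in mock, 4.10-fold lower (3.91 to 4.31). Both chains of its receptor αvβ5 were lower as well. Itgav had 15.4 CPM in cuprizone and 69.6 CPM in mock, 4.52-fold lower (4.01 to 5.11). Itgb5 had 93 counts (4.32 CPM) in cuprizone and 261 counts (12.7 CPM) in mock, 2.94-fold lower (2.31 to 3.77). Megf10 had 11.8 CPM in cuprizone and 19.8 CPM in mock, 1.69-fold lower (1.44 to 1.98). The counting intervals of Mertk and Megf10 lie below those of the other 5 genes that were lower.

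Gulp1, the adaptor, went the other way. It had 294 counts (13.7 CPM) in cuprizone and 145 counts (7.07 CPM) in mock, 1.93-fold higher (1.58 to 2.38). The deposited 5-week cuprizone library 2, left out as a repeat, has 399 Gulp1 counts where library 1 has 294, and with it in place of library 1 the log2 ratio was 1.18 in place of 0.94.

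**Figure D3:**
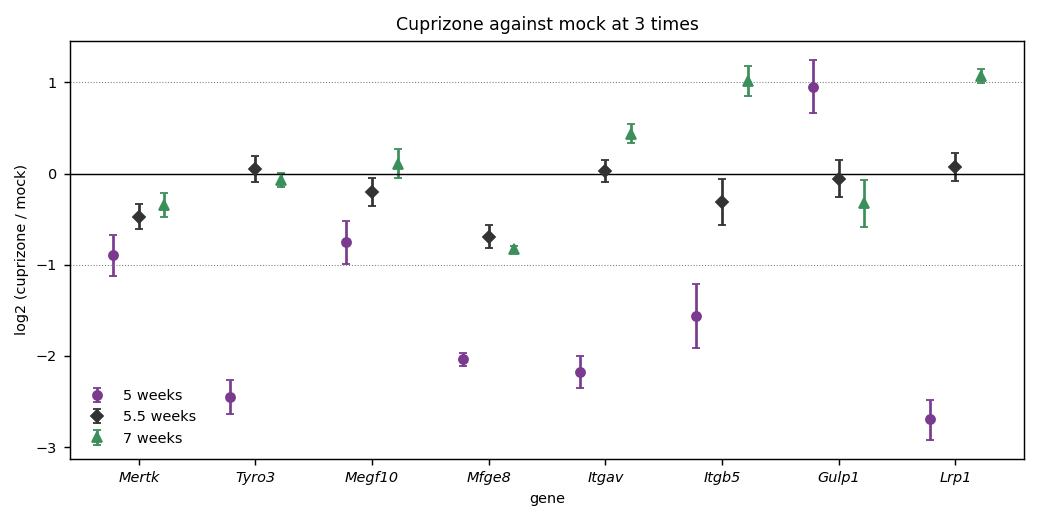
Log2 of cuprizone over mock for each gene at 5, 5.5 and 7 weeks; points at 5 and 7 weeks are ratios of scaled counts of 1 library each with 95% counting intervals, and points at 5.5 weeks are fitted log2 fold changes ± SE (n = 3 cuprizone, 2 mock). At 5 weeks 7 of 8 points lie below 0, and at 7 weeks Itgb5 and Lrp1 lie near 1.

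At 7 weeks, after 2 weeks back on regular chow, 4 of the 8 genes lay below mock and 4 above it, though with total-count scaling Mertk, Tyro3 and Gulp1 change sides. Of all genes compared, 62.7% lay below mock. Itgb5 and Lrp1 were at least 2-fold higher in the cuprizone library, 2 of 8 against 9.9% of the 12173 genes compared, and 0 of 8 were at least 2-fold lower, against 5.54%. Mfge8 remained below mock. The median log2 ratio was 0.02 over the 8 genes and -0.23 over all genes compared.

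Lrp1 had 5081 counts (177.6 CPM) in cuprizone and 2220 counts (84.7 CPM) in mock, 2.10-fold higher (95% interval 2.00 to 2.21). Itgb5 had 969 counts (33.9 CPM) in cuprizone and 439 counts (16.7 CPM) in mock, 2.02-fold higher (1.81 to 2.27). Both stand close to the 2-fold mark. With the deposited cuprizone library 1 or 3, which repeat library 2, the log2 ratios were 0.89 and 0.90 for Lrp1 and 0.85 and 0.85 for Itgb5, under 2-fold.

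Itgav had 67.9 CPM in cuprizone and 50.2 CPM in mock, 1.35-fold higher (1.26 to 1.45). Mfge8 had 7498 counts (262 CPM) in cuprizone and 12229 counts (466 CPM) in mock, 1.78-fold lower (1.73 to 1.83). The bridge and the integrin chains thus lay on opposite sides of mock in these 2 libraries. Mertk had 29.4 CPM in cuprizone and 37.3 CPM in mock, and Gulp1 had 8.32 CPM in cuprizone and 10.4 CPM in mock, log2 ratios of -0.34 and -0.32. Tyro3 had 110.7 CPM in cuprizone and 116.2 CPM in mock, and Megf10 had 24.99 CPM in cuprizone and 23.2 CPM in mock, log2 ratios of -0.07 and 0.11. The counting intervals of Tyro3 and Megf10 include no difference.

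Scaling matters at this week. Scaling by total count alone raises the log2 ratios of all genes by 0.43. The log2 ratio of Mertk is then 0.08, that of Gulp1 0.10 and that of Tyro3 0.36, above mock instead of below it, while Mfge8 stays below at -0.40. Over all genes the split is 1205 higher and 674 lower with TMM, and 2197 higher and 112 lower with total counts. Transcript length moves with the ratio as well. Genes with under 2 kb of merged exons had a median log2 ratio of -0.58 at 7 weeks and genes over 8 kb had one of 0.18, with 14.9% of the long genes at least 2-fold higher. Lrp1, with 17.7 kb, and Itgav, with 10.7 kb, are in the long class, and Itgb5, with 3.55 kb, is in the class of 2 to 4 kb, where 7.87% of genes were at least 2-fold higher. At 5 weeks the same medians ran between -0.12 and 0.12. The part of length in these values was not tested.

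Markers of other cells also differed in the 7-week cuprizone library, some higher and some lower. Microglial markers summed to 1155 CPM in it and 83.4 CPM in its mock library, with 13 of 14 at least 2-fold higher and 0 of the 14 at a count of 0 in either library. Endothelial markers summed to 226 CPM in cuprizone and 5.95 CPM in mock, with 8 of 8 at least 2-fold higher, and pericyte markers summed to 292 CPM in cuprizone and 42.6 CPM in mock, with 6 of 7 higher. Oligodendrocyte markers summed to 14460 CPM in cuprizone and 21540 CPM in mock, and oligodendrocyte precursor markers to 659 CPM in cuprizone and 1080 CPM in mock. Neuronal markers summed to 6737 CPM in cuprizone and 11050 CPM in mock. These sums were lower in cuprizone, but few single markers passed 2-fold. Of 12 oligodendrocyte markers 0 were at least 2-fold higher and 3 lower, and of 9 precursor markers 0 were higher and 1 lower. Of 10 neuronal markers 2 were higher, Gad1 (log2 ratio 2.36) and Gad2 (2.43), and 1 was lower, Snap25 (-1.05). Of all genes compared, 9.9% were higher and 5.54% lower. Microglia, endothelial cells and pericytes also transcribe several of the 8 genes, Lrp1 and the integrin chains among them. At 5 weeks the microglial sum was 115 CPM in cuprizone and 59.7 CPM in mock, with 1 of the 14 markers at 0 in each library, the endothelial sums were 2.14 CPM in cuprizone and 3.95 CPM in mock. The astrocyte sums at 5 weeks were 19590 CPM in cuprizone and 9649 CPM in mock, but Gfap alone had 9691 CPM in cuprizone and 900 CPM in mock, 7 of the 12 astrocyte markers were lower in cuprizone, and the median log2 ratio of the list was -0.25. The oligodendrocyte sums at 5 weeks were 10550 CPM in cuprizone and 16030 CPM in mock, with 8 of 12 markers at least 2-fold lower. At 5.5 weeks the microglial sums were 65.2 to 86.1 CPM in cuprizone and 48.5 to 58.1 CPM in mock, and 0 of 13 microglial markers tested by edgeR were called (5 at an unadjusted p under 0.05). Markers of activated microglia and macrophages summed to 59.0 to 67.9 CPM in cuprizone and 30.9 to 40.3 CPM in mock at 5.5 weeks. There 5 of 11 rose, against 1.08% of all genes tested. The cuprizone means of those 5 ran from 0.608 CPM (Itgax) to 7.90 CPM (Lgals3), so the lowest rest on few counts. At 5 weeks the markers of this list summed to 95.5 CPM in cuprizone and 37.1 CPM in mock, with 6 of 7 at least 2-fold higher. At 7 weeks they summed to 386 CPM in cuprizone and 36.0 CPM in mock, with 9 of 10 higher. Of the 12 oligodendrocyte markers, 3 rose and 1 fell at 5.5 weeks, against 1.08% and 0.392% of all genes tested. The part of these cells in the values of the 8 genes was not tested.

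**Figure D4:**
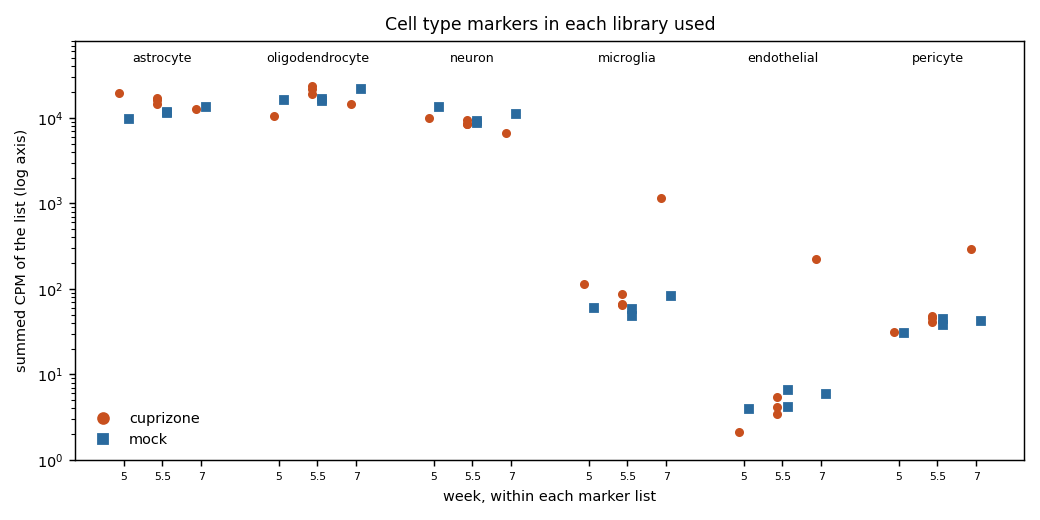
Summed level of the markers of 6 cell types (CPM, log axis) in each library used, by week; circles are cuprizone and squares mock libraries. The 7-week cuprizone library is far above the others for microglial, endothelial and pericyte markers, at 1155, 226 and 292 CPM.

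Across the 3 weeks, Mfge8 and Mertk were the 2 genes of the 8 that lay below mock each time, a pattern of 23.0% of the 11187 genes compared at all weeks, so 2 of 8 is near the background. For Mertk it also rests on the scaling at 7 weeks given above. Lrp1 and Itgb5 were the 2 genes that passed 2-fold below mock at 5 weeks and 2-fold above it at 7 weeks, against 1.08% of those genes. As given above, the 7-week criterion is not met with the other deposited cuprizone libraries. It is met with the deposited mock 1 (1.31 for Lrp1 and 1.24 for Itgb5), mock 2 (1.23 and 1.17) and total-count scaling (1.49 and 1.44).

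A single edgeR model over all 9 libraries takes its spread from the 5.5-week libraries, the only ones with replicates, and assumes that the lone ones vary alike. In it, 7 of the 8 genes were called lower at 5 weeks, against 18.5% of 20292 genes, and Gulp1 was called higher, against 14.6%. The edgeR adjusted p was 0.0324 for Gulp1, 0.0151 for Itgb5, 0.0141 for Megf10 and 0.00376 for Mertk, and at most 3.4e-07 for the other 4 genes. At 7 weeks the fit called Lrp1 (0.000751), Itgav (0.0321) and Itgb5 (0.0392) higher, against 24.0% of genes, and Mfge8 (0.00542) lower, against 15.4%. The same model called the effect at 5 weeks lower than that at 5.5 weeks for 4 of the 8 genes, Tyro3, Mfge8, Itgav and Lrp1, and higher for 0, against 14.3% and 8.91% of all genes. It called the effect at 7 weeks higher than that at 5.5 weeks for Lrp1 and lower for 0 of the 8, against 10.3% and 6.92%.

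On a scale set over all 9 libraries, the 5-week cuprizone library had the lowest level of the 6 groups for 7 of the 8 genes and the highest for Gulp1. Mfge8 was highest in the 5.5-week, 7-week and 5-week mock groups at 446 ± 33.2 (SD, n = 2), 426 and 395 CPM, followed by the 5.5-week cuprizone group at 278 ± 32.6 (SD, n = 3), the 7-week cuprizone library at 257 CPM and the 5-week cuprizone library at 92.2 CPM. The 7-week mock value lies within the spread of the 5.5-week mock group, and the 7-week cuprizone value within that of the 5.5-week cuprizone group. Lrp1 was highest in the 7-week cuprizone library at 174 CPM. Next came the 5.5-week cuprizone group at 86.8 ± 14.7, the 5.5-week mock group at 82.1 ± 12.3, the 7-week mock library at 77.4 and the 5-week mock library at 61.5 CPM. The first 3 of these are not apart beyond their spread, and the 5-week cuprizone library was last at 9.09 CPM. Itgb5 followed with 33.2 CPM in the 7-week cuprizone library, 11.9 to 15.3 CPM in 4 groups and 4.14 CPM in the 5-week cuprizone library.

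Per kilobase of exon, Mfge8 was the most abundant of the 8 in all 6 groups, with 84.2 to 94.97 CPM per kb in the mock groups and 19.6 CPM per kb in the 5-week cuprizone library. In the 5.5-week mock group it was followed by Tyro3 at 17.5, Mertk at 7.64, Itgav at 4.82, Lrp1 at 4.64, Itgb5 at 4.14, Megf10 at 2.82 and Gulp1 at 1.98 CPM per kb. In the 5-week cuprizone library the order was another one. Gulp1 was then in position 2 at 3.49 CPM per kb, above Mertk at 2.71 and Tyro3 at 2.03, and Lrp1 was last at 0.513 CPM per kb.

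For each gene, the genes whose levels ran most like it over the 9 libraries, centred within each batch, were taken from the 16071 genes tested at 5.5 weeks and present in both batches, by the root mean square difference of log2 levels. For Mfge8 these were Fdft1 (0.114), a squalene synthase of cholesterol synthesis, Htra1 (0.123) and Heph (0.131). For Lrp1 they were Gabrg3 (0.103), Adcy10 (0.142) and Lrrc3 (0.142), and for Itgb5 Srrd (0.174), Cklf (0.174) and 1600023N17Rik (0.189). For Tyro3 they were Clstn1 (0.0566), Cd82 (0.0769) and Enkd1 (0.100). For Itgav they were Mfsd6 (0.0652), Gabra3 (0.0914) and Mfsd11 (0.0931). For Mertk they were Actrt3 (0.0775), Hes5 (0.0830) and Tril (0.0874), and for Megf10 Tmem191c (0.0877), Lnx1 (0.0882) and Col9a2 (0.0950). For Gulp1 they were Stag2 (0.0863), Zfp934 (0.106) and E130114P18Rik (0.108). The own spread of the 8 genes by the same measure was 0.245 to 0.741. None of the 8 is among the 3 nearest genes of another.

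Around the 8 genes, a list of 35 ligands, bridging proteins and other engulfment receptors had 32 genes tested at 5.5 weeks, of which 2 rose and 0 fell. Of all genes tested, 1.08% were called higher and 0.392% lower. A2m, which encodes α2-macroglobulin, a ligand of Lrp1, averaged 13.4 ± 0.96 CPM in cuprizone (SD, n = 3) and 0.911 ± 0.133 CPM in mock (SD, n = 2), a log2 fold change of 3.87 ± 0.21 (edgeR adjusted p = 5.07e-06). Pros1, protein S, a ligand of Tyro3 and Mertk, averaged 18.0 ± 0.174 CPM in cuprizone and 11.7 ± 0.247 CPM in mock, a log2 fold change of 0.62 ± 0.13 (edgeR adjusted p = 0.0475). The call of Pros1 was lost without cuprizone 1 (0.191), cuprizone 3 (0.147), mock 1 (0.182) or mock 3 (0.180). At 5 and 7 weeks the log2 ratio of A2m was 3.92 and 4.54 and that of Pros1 -0.71 and 1.35. The 5-week value of A2m rests on the mock library used. With the deposited mock 1 in its place it was 1.26, and with the mean of all deposited libraries 1.88. Gas6, the other TAM ligand, and Axl were picked here after their values were seen, with log2 fold changes of -0.02 and -0.00 at 5.5 weeks and edgeR adjusted p-values of 0.975 and 0.993. At 5 weeks Gas6 had 24.2 CPM in cuprizone and 69.5 CPM in mock, and Axl had 27.8 CPM in cuprizone and 29.8 CPM in mock.

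C1qa, C1qb and C1qc, which encode the chains of the complement bridge C1q, were at least 2-fold higher at both 5 and 7 weeks. Their log2 ratios were 1.89, 1.80 and 2.34 at 5 weeks and 4.61, 4.17 and 4.42 at 7 weeks, and at 5.5 weeks their log2 fold changes were 0.99, 0.77 and 0.91, not called (edgeR adjusted p = 0.0872, 0.302 and 0.160). DESeq2 called C1qa (adjusted p = 0.0456) and C1qc (0.0387). The fit of 9 libraries (0.0159) and that of all 6 deposited libraries (0.0252) also called C1qa, and with no filter on low counts all 3 were called. Brain C1q is made mainly by microglia, and C1qa and C1qb are also in the microglial marker list, whose sums are given above. Past 2-fold, the whole list had 4 genes higher and 8 lower of 24 compared at 5 weeks, against 8.89% and 12.2% of all genes, and 11 higher and 0 lower of 29 at 7 weeks, against 9.9% and 5.54%.

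Inside the cell, 25 genes of engulfment signalling were tested at 5.5 weeks and 2 rose, against 1.08% of all genes tested. Arpc1b, a subunit of the Arp2/3 complex that nucleates branched actin, averaged 83.9 ± 12.8 CPM in cuprizone (SD, n = 3) and 35.6 ± 4.82 CPM in mock (SD, n = 2), a log2 fold change of 1.24 ± 0.15 (edgeR adjusted p = 0.00209). Abca1, a transporter that exports cholesterol, averaged 22.3 ± 2.53 CPM in cuprizone and 10.8 ± 2.38 CPM in mock, a log2 fold change of 1.04 ± 0.17 (edgeR adjusted p = 0.0108), and its call was lost without mock 3 (0.113). At 5 and 7 weeks the log2 ratio of Arpc1b was 1.69 and 1.04 and that of Abca1 0.79 and 2.10. Rhog, a small GTPase upstream of Rac1, had log2 ratios of -1.05 and -1.01 at these weeks, just past 2-fold lower. With other deposited libraries or total-count scaling it ranged from -1.22 to -0.55 at 5 weeks and from -1.19 to -0.58 at 7 weeks, so the 2-fold mark is not held. Arpc1b at 7 weeks was likewise under 2-fold with the deposited cuprizone 1 (0.86) or 3 (0.88), and Abca1 at 5 weeks passed 2-fold with the deposited mock 1 (1.07). The list had 3 genes higher and 1 lower of 21 compared at 5 weeks, and 4 higher and 4 lower of 24 at 7 weeks, beside the same shares of all genes.

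The other lists had 0 genes called at 5.5 weeks, with 12 genes of phosphatidylserine exposure, 26 of phagosome maturation and 13 further members of the LDL receptor family tested by edgeR, of which 4, 2 and 3 had an unadjusted p under 0.05, as did 1755 of all 16086 genes. At 5 weeks 7 of 12 genes of the LDL receptor family were at least 2-fold lower and 0 higher, beside Lrp1, and at 7 weeks 0 of 13 were lower and 1 higher. Of all genes compared, 12.2% were lower and 8.89% higher past 2-fold at 5 weeks, and 5.54% lower and 9.9% higher at 7 weeks. Of the genes of phosphatidylserine exposure, 2 were higher and 4 lower of 8 at 5 weeks, and 6 were higher and 0 lower of 11 at 7 weeks. Atp8a2 and Atp11b, flippases that move phosphatidylserine to the inner leaflet, had log2 ratios of -2.94 and -1.36 at 5 weeks and 1.07 and 1.82 at 7 weeks, and Atp8a2 was at 0.90 with the deposited 7-week cuprizone 1. Of the genes of phagosome maturation, 2 were higher and 2 lower of 26 at 5 weeks, and 1 higher and 1 lower of 26 at 7 weeks. Ctsd, the lysosomal protease cathepsin D, had 72.3 CPM in cuprizone and 162.7 CPM in mock at 5 weeks, and 348 CPM in cuprizone and 143 CPM in mock at 7 weeks. Its log2 ratio at 5 weeks was -1.17, and -0.88 with the deposited mock 1.

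At 5 weeks the median log2 ratio was -0.90 for ligands and other receptors, -1.07 for the LDL receptor family and -1.01 for phosphatidylserine exposure, and 0.30 for engulfment signalling and 0.22 for phagosome maturation. The medians of ligands and other receptors, the LDL receptor family and phosphatidylserine exposure thus lay below mock. Those of engulfment signalling and phagosome maturation lay above it. Single genes went both ways, with 4 ligands and other receptors at least 2-fold higher and 8 lower. In phagosome maturation 2 were higher and 2 lower. Where the proteins lie in the cell was not tested. At 7 weeks the medians in the same order were 0.29, 0.29, 1.07, -0.14 and -0.43. At 5.5 weeks they were 0.14, 0.11, 0.22, 0.08 and 0.03. No test was made of the lists, which were also chosen with earlier results of these data known.

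**Figure D5:**
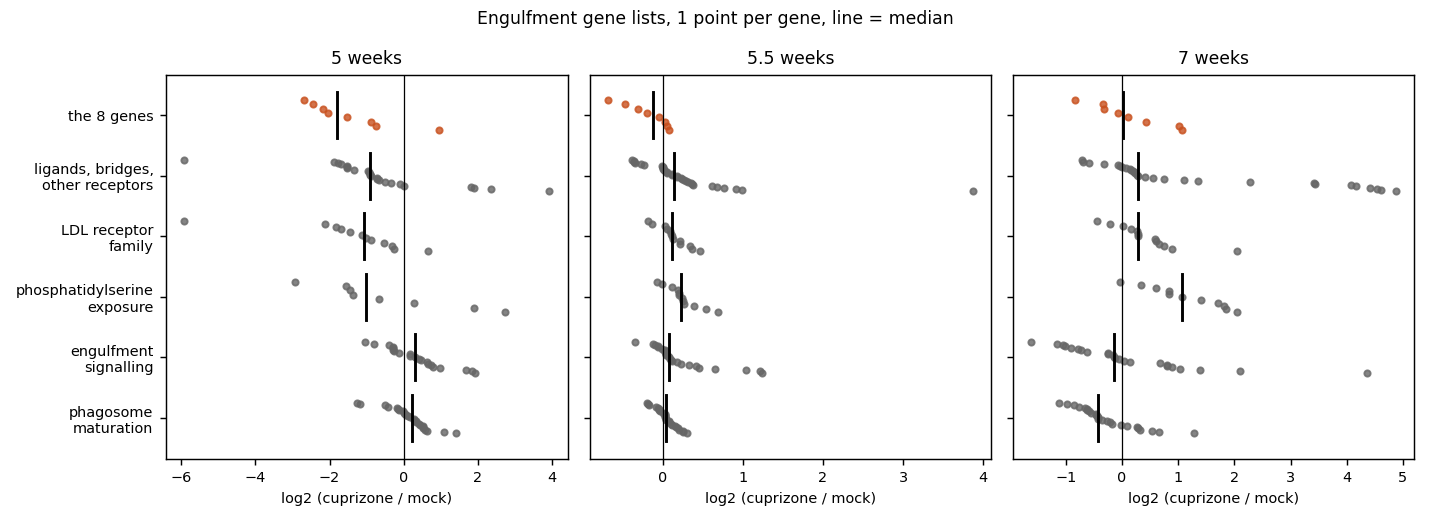
Log2 of cuprizone over mock (horizontal axis) for each gene of 6 lists at 5, 5.5 and 7 weeks, 1 point per gene, with a vertical bar at the median; the 8 genes are in orange. At 5 weeks the medians of the top 4 lists lie between -0.90 and -1.79, and those of the bottom 2 at 0.30 and 0.22.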

How the data were processed

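Whole-number counts per Ensembl gene were deposited by the authors, with no normalization. Per the submitters' processing notes they used FastQC 0.11.9, STAR 2.5.4b and featureCounts 1.6.0, and the notes list GRCm39/mm39 and GRCm38/mm10 with no role for each. Strand counting is not given in the sources used here. Chromosomes and exon lengths are from GENCODE M21. Symbols are from a reference list of gene names, which holds 99.4% of 5-week and 94.0% of later identifiers. Promoters are from the RefSeq GRCm38.p6 table.

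Libraries were taken as repeats when over 40% of genes with at least 500 counts lay 1 to 10 above another library of the group, and the lower library was used. Genes kept by filterByExpr at a minimum count of 10 were tested at 5.5 weeks, after TMM scaling, with edgeR 4.0.16 (R 4.3.3, quasi-likelihood, robust, two-sided, Benjamini-Hochberg, threshold 0.05), with 3 residual degrees of freedom. The p-values set each difference against the spread between these libraries, and that spread is drawn toward the spread of other genes. The median prior degrees of freedom of this borrowing were 8.64, more than the 3 residual ones. At 5 and 7 weeks the log2 ratio of CPM (prior count 2) was taken for genes reaching 5 CPM in either library. Reads are not independent molecules. CPM is per week unless a scale over 9 libraries is named.

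The 8 genes are named at every week. Of the other lists, genes called at 5.5 weeks, or at least 2-fold apart at both other weeks, are named. Members and lists were chosen with earlier results of these data known. Alternatives were other scalings, filters, libraries left out or exchanged, a replicate block, DESeq2 1.42.0 and a fit of 9 libraries.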

Additional observations from a re-analysis of the deposited data

Results flagged for a closer look

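The cuprizone effect differed between weeks for 4 of the 8 genes in the edgeR fit of the 9 libraries, in which the lone libraries of 5 and 7 weeks borrow the spread of the 5.5-week ones. The difference of the log2 effects, 5 weeks minus 5.5 weeks, was -2.57 for Tyro3 (adjusted p = 1.56e-06), -1.42 for Mfge8 (adjusted p = 0.000116), -2.28 for Itgav (adjusted p = 1.56e-06) and -2.84 for Lrp1 (adjusted p = 2.12e-06). Over all 20292 genes, 14.3% were called lower and 8.91% higher at 5 weeks than at 5.5 weeks. For Lrp1 the effect at 7 weeks minus that at 5.5 weeks was 1.09 (adjusted p = 0.0101), against 10.3% of genes called higher in this contrast. These values rest on 1 cuprizone and 1 mock library at 5 and at 7 weeks, and 5 weeks is also the other batch, so batch and week cannot be told apart.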

How the results depend on the processing

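At 5.5 weeks edgeR called 173 genes higher and 63 lower, 381 and 162 with no filter on low counts, 49 to 189 higher and 16 to 85 lower without each library in turn, and 314 higher with all 6 deposited libraries. With the replicate number as a block it called 481 and 269. The pairing is by number only, and the block leaves 1 residual degree of freedom. Deviations of same-numbered libraries had correlations of 0.04 and -0.08. With 2 mock libraries both correlations use the same mock difference, so they cannot settle whether the numbers mark pairs. With the block Mertk was -0.56 (adjusted p = 0.0126) and Itgb5 -0.69 (0.00556), C1qa (0.0229) and Rhog (0.0340) were called, and signs turned for Tyro3 (-0.088), Itgav (-0.042) and Lrp1 (-0.047). With a library left out the values ranged from -0.093 to 0.20 for Tyro3, from -0.042 to 0.073 for Itgav, from -0.29 to 0.23 for Gulp1, from -0.069 to 0.24 for Lrp1 and from -0.17 to 0.49 for Atp8a2. Gulp1 was 0.025 with all 6 deposited libraries. The fall of Mfge8 was also called with DESeq2 (adjusted p = 0.000146), all 6 libraries (0.0101) and the fit of 9 libraries (0.00274). At 5 weeks 1029 genes were at least 2-fold higher and 1409 lower, and 1927 and 2321 with a minimum of 1 CPM. At 7 weeks they were 1205 and 674, 2197 and 112 with total counts only, and 3018 higher with a minimum of 1 CPM. With the deposited cuprizone 3, mock 1 or mock 2 in place of the library used, 1402, 407 or 345 were lower. The causes were not tested. All values at 5 and 7 weeks rest on 1 library per group.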
